A study of Mus musculus with 10 samples.

Results

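The genes described here are 43 of the 14812 gene entries measured in mouse hepatocytes, chosen by name as the machinery that carries proteins into and out of the endoplasmic reticulum (ER). They cover the signal recognition particle (5 genes), its receptor (2), the translocon and its partners (6), the translocon-associated protein complex TRAP (4), signal peptidase (3), oligosaccharyltransferase (8), cargo and retrieval receptors (5), the COPI coat (6) and the COPII coat (4). The files write gene symbols in lower case (sec61a1, sec61g, ssr2, krtcap2, sec23b and copg1, for example), and the usual mouse spelling is used below. The rule names genes by their role and sets no threshold on a measured value, although earlier results of these data were known when it was written. All 43 were found and had enough counts to be tested. The study profiled single hepatocytes, the main cells of the liver parenchyma, at 4 times of day to ask how expression depends on time and on position in the liver lobule. Its 10 libraries fall into 3 at ZT0 (A, B and C), 2 at ZT6 (A and B), 3 at ZT12 (A, B and C) and 2 at ZT18 (A and B), where zeitgeber time (ZT) counts hours from lights on. All groups came from C57BL/6 male mice aged 3 months, given regular chow without restriction and anaesthetised with ketamine and xylazine. Cells were freed by perfusing the liver with collagenase, purified on a Percoll gradient and made into libraries with the 10x Chromium 3' kit, which tags each captured mRNA near its 3' end with a unique molecular identifier (UMI). The number of mice behind a library is not given in the labels, so p-values measure the spread between libraries, which may in part be technical.

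A hepatocyte secretes most plasma proteins, and each of these starts at the ER membrane. The signal recognition particle (SRP) binds a signal sequence as it leaves the ribosome and docks on its receptor, the chain passes through the Sec61 channel, signal peptidase removes the signal sequence and oligosaccharyltransferase (OST) adds N-linked glycans. Folded cargo leaves in COPII-coated vesicles, and COPI-coated vesicles return escaped ER proteins and receptors from the Golgi. In the lobule, blood flows from portal to central vein, and periportal hepatocytes are known for plasma protein synthesis.

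The 18378 cells gave 1454623 to 7144803 UMIs per library, with a median of 1588 to 2662 UMIs per cell. Mitochondrial genes took 12.88% to 24.28% of a library's UMIs, and their share was 15.9% and 15.96% at ZT6 against 21.53% and 19.34% at ZT18. The summed level of 8 hepatocyte markers was 46034.6 to 74515.6 normalised CPM (CPM, UMIs scaled to a common library total, here after TMM normalization, which sets the bulk of genes level between libraries). Endothelial, macrophage, lymphocyte, neutrophil, stellate and cycling lists each summed to at most 16.4 normalised CPM in any library. The cholangiocyte list summed to 17.6 to 36.6 at ZT0, 0.789 to 4.05 at ZT6, 3.36 to 5.71 at ZT12 and 12.2 to 17.7 at ZT18, led by Sox9, and Krt19, Krt7, Epcam and Muc1 were each at 0 in at least 1 library. The erythroid list was 85.9 to 88.8 at ZT0, 78.1 to 83.3 at ZT6 and 70.5 to 94.4 at ZT12, and reached 378.8 in 1 ZT18 library. Of the 6 plasma cell markers 3 were found in the files, and they summed to 136 to 291 normalised CPM at ZT0, 194 to 211 at ZT6, 155 to 206 at ZT12 and 275 to 277 at ZT18, nearly all of it Sdc1, with Jchain and Mzb1 at 0 in at least 1 library. ZT0A stood apart for several short members, as given below, and some of the results it touches are given with and without it.

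Each member's UMIs were summed over the cells of a library, giving 646 or more UMIs per member over all libraries and mean levels of 15.1 (Srprb) to 696 (Sec61g) normalised CPM. Because the 3' kit counts 1 tag per captured molecule, these levels were not divided by gene length. In bulk sums such as these, fewer cells with a transcript and less RNA per cell cannot be told apart. Changes were tested with edgeR's quasi-likelihood test over all genes that averaged 3 CPM or more, with Benjamini-Hochberg adjusted p-values (adjusted p) and a threshold of 0.05, and errors on log2 changes are standard errors.

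The promoter sequences of the 2 members that passed a test between times, and those carrying motifs of the unfolded protein response, are shown first, since much of this machinery is known to be induced by ER stress. Sequences of 250 bases before and 50 after the annotated start were available for 33 of the 43 members in RefSeq (build GRCm38.p6). They were not matched for Srp19, Srp68, Sec61a1, Tram1, Ssr2, Spcs3, Ostc, Kdelr2, Tmed2 and Arcn1. The unfolded protein response element TGACGTG, read on both strands, was found in 4 of the 33 members (Copb1, Copb2, Sec24d and Srpr), and in 2.22% of 27025 genes with such a sequence. The ER stress response element II (ATTGG, any base, CCACG) was found in 1 member (Krtcap2) and in 0.0444% of genes. The first ER stress response element (CCAAT and CCACG with 9 bases between) was found in 0 of the 33 members and in 0.137% of genes. The E-box CACGTG, the core of the element bound by the clock proteins, was found in 3 members (Sec62, Tmed10 and Ssr1) and in 8.09% of genes. The bare letters CCACG, which end both ER stress elements, stood within the 250 upstream bases of 19 of the 33 members and of 31.0% of genes. A match is a run of letters, not evidence of binding. The 30-base stretches around the ER stress motifs, 5′ to 3′ on the gene's strand with the motif in capitals, follow, and in Krtcap2 the motif lies just after the start site.
Krtcap2 (chr3:89246481-89246510, plus strand): gggacacggATTGGACCACGgacggggcgt
Copb1 (chr7:114254689-114254718, minus strand): ccgcccccttcCACGTCAgccaaggacttg
Copb2 (chr9:98563714-98563743, plus strand): cccggaagttcCACGTCAgtgggttggccg
Sec24d (chr3:123267459-123267488, plus strand): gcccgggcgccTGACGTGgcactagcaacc
Srpr (chr9:35211179-35211208, plus strand): ggctgctggtgTGACGTGtcccgcgcttgg
In the 250 bases upstream of Sec23b and Copg1, the members that passed the test between ZT18 and ZT6, none of these 3 ER stress elements was found. Printed are the 250 bases for Sec23b and, for Copg1, the 124 bases of that window that precede the first exon annotated in GENCODE, with the single CCACG of Copg1 in capitals.
Sec23b (chr2:144555979-144556228, plus strand): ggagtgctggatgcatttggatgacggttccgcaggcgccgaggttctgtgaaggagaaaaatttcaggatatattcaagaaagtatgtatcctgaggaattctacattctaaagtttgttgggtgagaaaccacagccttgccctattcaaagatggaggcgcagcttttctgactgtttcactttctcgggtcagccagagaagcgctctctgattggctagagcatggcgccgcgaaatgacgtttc
Copg1 (chr6:87887690-87887813, plus strand): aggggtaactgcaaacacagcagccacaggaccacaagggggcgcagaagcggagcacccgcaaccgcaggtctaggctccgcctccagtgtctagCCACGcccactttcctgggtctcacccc

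The first comparison asked which members follow the time of day. As a group their transcripts were lowest at ZT6, in the middle of the light phase, and higher at ZT18 and ZT0. All 43 together summed to 6136 ± 1027 normalised CPM at ZT0 (SD, n = 3), 4747 ± 218 at ZT6 (n = 2), 5202 ± 116 at ZT12 (n = 3) and 5646 ± 134 at ZT18 (n = 2). At ZT0 the library A gave 7323, and B and C gave 5539 and 5548, so the ZT0 mean rests in part on ZT0A. The mean level was lowest at ZT6 for 28 of 43 members and highest at ZT6 for 0, against 28% and 25.2% of the 8908 genes tested. With library size alone as scaling the same counts were 28 and 0, against 24.5% and 27.5% of genes. In 10 members (Ssr1, Ssr3, Rpn1, Ostc, Stt3a, Stt3b, Tmed2, Copb2, Copg1 and Sec23b) both ZT6 libraries lay below all the other 8, which 5.32% of genes did. These counts were made after the values had been seen.

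**Figure D1:**
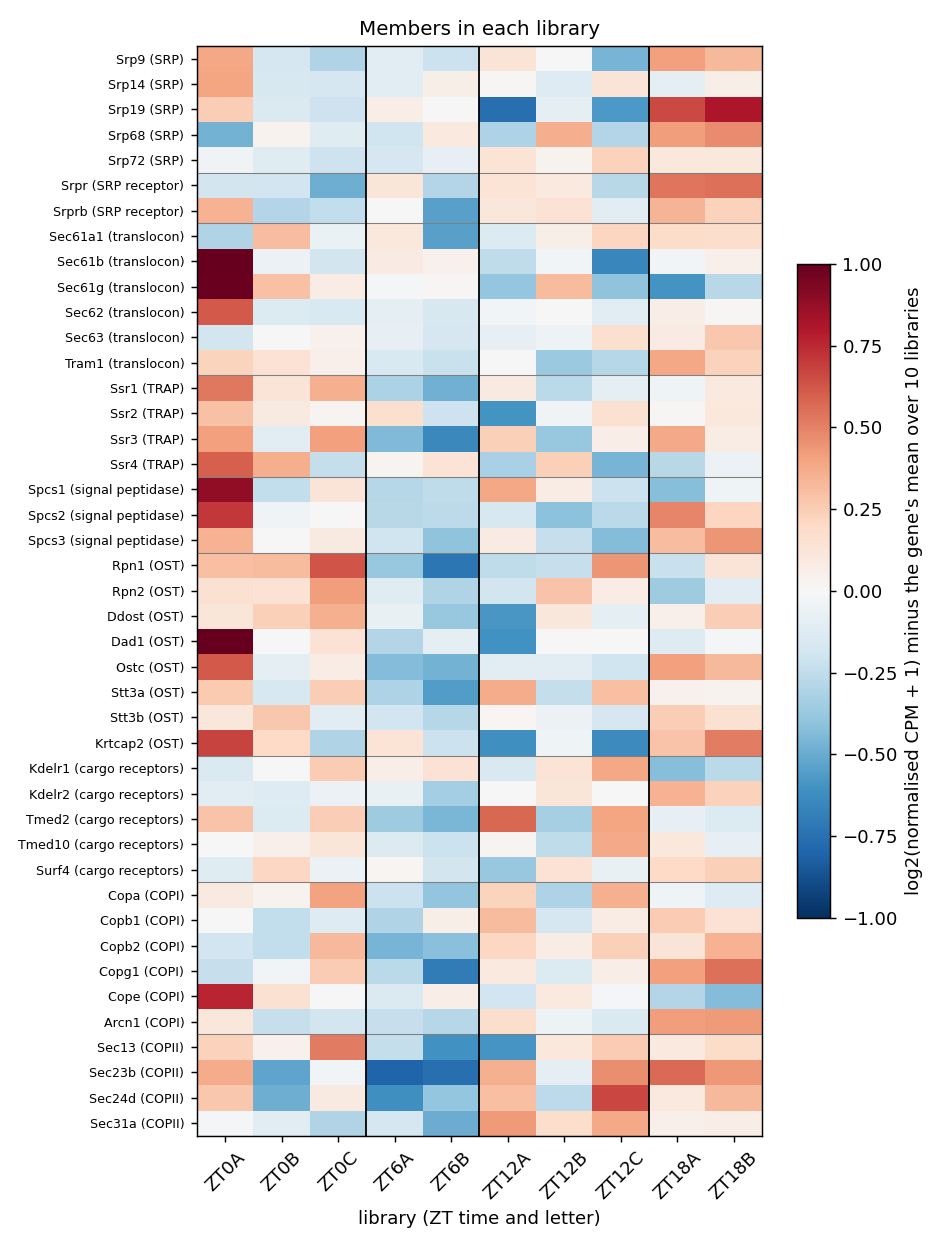
Level of each of the 43 members (rows, grouped by role) in each of the 10 libraries (columns), as log2(normalised CPM + 1) minus the gene's mean over libraries, with the colour scale stopped at 1 in either direction. The ZT6 columns are mostly blue, the ZT18 columns mostly red, and ZT0A is dark red for Sec61b, Sec61g and Dad1.

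The test of a 24-h wave called 0 of the 43 members, against 5.14% of all genes. At an unadjusted p under 0.05 there were 10 of the 43 members and 1816 of the 8908 genes tested. The lowest adjusted p values (edgeR) were 0.0642 for Sec23b, 0.0735 for Copg1 and 0.0890 for Ostc. The DESeq2 test called 4 members (Copg1, Ostc, Sec23b and Tram1), against 8.89% of genes by the same test. With the letter as a block edgeR called 2 (Copg1 and Sec23b), and no share of all genes was counted for that fit. Libraries of ZT6 and ZT18 with the same letter did not deviate together (r = 0.02047), so the letter does not pair these times. The fitted peak lay nearest to ZT18 for 27 members, ZT0 for 13, ZT12 for 2 and ZT6 for 1, where all genes gave 29.95%, 19.7%, 20.3% and 30.04%. Most fitted peaks thus lay near the middle or the end of the dark phase, with no single member past the threshold. Members peaking nearest to ZT0 include Sec61b, Sec61g and Dad1, which were highest in ZT0A. The peaks were not counted without that library.

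ZT18 against ZT6 was the time comparison in which members passed the test. Sec23b and Copg1 rose and 0 members fell. Of all 8908 genes 3.79% passed, 2.35% rising and 1.45% falling, so 2 calls among 43 members is near the share among all genes. Both encode coat subunits: Sec23b is the inner COPII subunit that activates the GTPase Sar1, and Copg1 is the gamma subunit of the COPI coatomer. Without a threshold, 37 of 43 members were higher at ZT18 (49.3% of all genes), with a median log2 change of 0.43 against -0.01 for all genes. Library size alone gave 34 members, with a median of 0.35 against -0.09, and called Sec23b only, where 1.85% of genes rose and 1.53% fell. The libraries did not overlap for 33 members higher and 4 lower at ZT18, shares to be set against 30.9% and 32.1% of genes. Both ZT6 libraries shared an index number and both ZT18 libraries another, so this comparison cannot tell time from index number. Libraries of the same time also lay closer together here. Their chi-square per degree of freedom was 5.66 at ZT6 and 5.30 at ZT18, against 20.9 to 63.6 for the ZT0 and ZT12 pairs. The part of the shared index in these differences was not tested.

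The inner COPII subunit Sec23b (chr2:144556229-144590749, plus strand, GENCODE M21) had normalised CPM values of 50.3, 26.6 and 38.0 at ZT0, 21.8 and 22.5 at ZT6, 49.7, 36.2 and 53.6 at ZT12, and 57.6 and 52.7 at ZT18. Both ZT6 libraries were below the other 8, and both ZT18 libraries were above ZT6 by more than their own spread. The ZT18 mean was 55.1 ± 3.47 against 22.1 ± 0.488 at ZT6, a log2 change of 1.32 ± 0.30 (edgeR adjusted p = 0.0288). Copg1 (chr6:87887814-87913595, plus strand) had normalised CPM values of 24.4, 28.3 and 34.5 at ZT0, 23.7 and 17.3 at ZT6, 30.9, 26.1 and 30.3 at ZT12, and 38.6 and 42.7 at ZT18. Its ZT18 libraries were the highest of all 10 and its ZT6 libraries the lowest. The log2 change was 0.97 ± 0.25 (edgeR adjusted p = 0.0462).

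Both calls rest on all 4 libraries compared. Without ZT6A the adjusted p of Sec23b was 0.219, without ZT6B 0.184, without ZT18A 0.175 and without ZT18B 0.148, with log2 changes that stayed between 1.25 and 1.38. For Copg1 the same 4 omissions gave 0.153, 0.346, 0.181 and 0.291, omitting ZT0B gave 0.0515, omitting ZT12C gave 0.0529 and scaling by library size alone gave 0.110. Mitochondrial share and the erythroid, cholangiocyte and plasma cell lists were also higher in both ZT18 than in both ZT6 libraries. The cholangiocyte list summed to 0.789 to 4.05 normalised CPM at ZT6 and 12.2 to 17.7 at ZT18, the plasma cell list to 194 to 211 and 275 to 277, and the erythroid list to 78.1 to 83.3 and 101 to 379. Their part in the result was not tested.

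**Figure D2:**
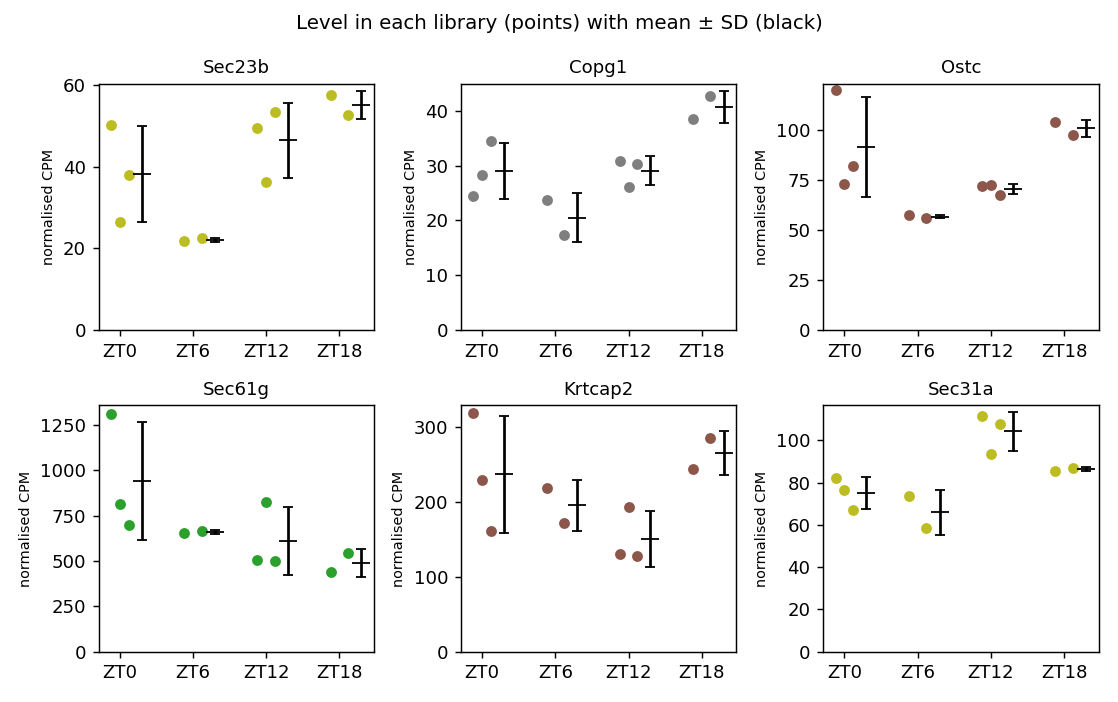
Normalised CPM (vertical axis, from 0) of 6 members at the 4 times (horizontal axis), with 1 coloured point per library and the mean ± SD in black (n = 3 at ZT0 and ZT12, n = 2 at ZT6 and ZT18). Sec23b, Copg1 and Ostc are lowest in both ZT6 libraries, Sec61g and Krtcap2 are highest in ZT0A, and Sec31a is highest in the 3 ZT12 libraries.

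Summed, both vesicle coats were lowest at ZT6, and of their other 8 genes none passed the test. The 6 COPI genes summed to 329.8 ± 0.812 normalised CPM at ZT6 against 419 ± 37.8, 416 ± 40.4 and 431 ± 0.304 at ZT0, ZT12 and ZT18, and the 4 COPII genes to 143 ± 11.8 against 197 ± 27.7, 235 ± 33.6 and 228 ± 4.61. In the COPI coat Arcn1, the delta subunit, had a log2 difference of 0.69 ± 0.22 (edgeR adjusted p = 0.0933) and Copb2, the beta' subunit that binds cargo, 0.70 ± 0.24 (edgeR adjusted p = 0.121). Cope, the epsilon subunit, had the opposite sign at -0.33 ± 0.26, with ZT18 libraries of 48.6 and 43.9 normalised CPM below all the others. Copa, the alpha subunit and the COPI gene with the most UMIs, had normalised CPM values of 127, 122 and 158 at ZT0, 103 and 90.7 at ZT6, 139.6, 96.4 and 153 at ZT12, and 116 and 109 at ZT18, with ZT18 above ZT6 and both ZT18 libraries within the range at ZT12. In the COPII coat, Sec24d, an inner subunit that binds cargo, differed by 0.74 ± 0.32, and the outer cage subunits Sec13 and Sec31a by 0.56 ± 0.28 and 0.38 ± 0.22, none of them past the threshold.

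Ostc, an OST subunit found in the complex that works at the translocon, came next to the threshold among the ER genes. It had normalised CPM values of 119.9, 72.7 and 82.1 at ZT0, 57.3 and 56.0 at ZT6, 71.8, 72.2 and 67.6 at ZT12, and 104 and 97.7 at ZT18, with both ZT6 libraries below all the others and ZT0A above all. Its log2 difference was 0.83 ± 0.25 (edgeR adjusted p = 0.0797), and without ZT0A the adjusted p was 0.0266. Of the 8 OST genes 7 were higher at ZT18 than at ZT6, Rpn2 being the exception at -0.02 ± 0.23. The catalytic subunits Stt3a, which works on chains in the translocon, and Stt3b, which also modifies completed chains, differed by 0.47 ± 0.26 and 0.44 ± 0.21. Rpn1, Dad1 and Ddost, noncatalytic subunits, differed by 0.51 ± 0.28, 0.12 ± 0.32 and 0.37 ± 0.25.

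Signal recognition genes were highest at ZT18 as a sum, at 597 ± 0.261 normalised CPM against 443 ± 0.0188 at ZT6 (SD, n = 2 each). The sum was 468 ± 91.9 at ZT0 and 453 ± 40.4 at ZT12 (n = 3 each). The SD of 2 libraries that lie close together is no measure of the error of these sums. All 5 SRP and both receptor genes had positive ZT18 to ZT6 differences, from 0.01 ± 0.24 for Srp14 to 0.72 ± 0.25 for Srp19, and none passed the test. Srp19, which binds the SRP RNA during assembly, had normalised CPM values of 66.8, 50.6 and 48.6 at ZT0, 58.8 and 56.0 at ZT6, 32.9, 52.7 and 37.3 at ZT12, and 89.4 and 99.4 at ZT18. Both of its ZT18 libraries lay above the other 8, and when all times were tested for any change at once, it was called (edgeR adjusted p = 0.0324). Srpr, the receptor's alpha subunit and a GTPase, had normalised CPM values of 91.4, 90.6 and 73.9 at ZT0, 113 and 84.8 at ZT6, 114, 111 and 85.7 at ZT12, and 151 and 152 at ZT18. Its ZT18 libraries were also the highest of all, at a log2 difference of 0.61 ± 0.24 from ZT6 (edgeR adjusted p = 0.169). Srp9, which with Srp14 slows elongation, had normalised CPM values of 308, 209 and 191 at ZT0, 219 and 203 at ZT6, 258, 236 and 170.0 at ZT12, and 314 and 294 at ZT18, and here ZT0A fell between the ZT18 libraries.

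The genes of the channel and its immediate partners did not move as one. Sec61a1, which forms the pore, differed by 0.36 ± 0.27 between ZT18 and ZT6, while the small subunits Sec61b and Sec61g differed by -0.05 ± 0.36 and -0.42 ± 0.34. Sec61g had normalised CPM values of 1313, 813 and 699 at ZT0, 652 and 667 at ZT6, 505, 825 and 500.3 at ZT12, and 437 and 546 at ZT18, so ZT0A was the highest library and ZT18A the lowest, and the ZT18 libraries were below those at ZT6. Tram1, a translocon partner, was higher at ZT18 by 0.50 ± 0.22, and Sec62 and Sec63, which serve chains that enter after translation, by 0.17 ± 0.27 and 0.30 ± 0.21. In the TRAP complex, which helps some chains to start translocation, Ssr3 differed by 0.78 ± 0.27 and Ssr1 by 0.43 ± 0.23, against 0.06 ± 0.25 for Ssr2 and -0.25 ± 0.30 for Ssr4. Ssr4 had normalised CPM values of 333, 283 and 186 at ZT0, 225 and 242 at ZT6, 176, 259.6 and 159 at ZT12, and 181 and 211 at ZT18, and its libraries at the 4 times overlapped except that ZT18 lay below ZT6. None of these genes passed the test.

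Signal peptidase subunits Spcs2 and Spcs3, accessory partners of the catalytic Sec11 proteins, differed by 0.63 ± 0.27 and 0.68 ± 0.23 between ZT18 and ZT6, and Spcs1 by 0.05 ± 0.33. Spcs1 had normalised CPM values of 215, 97.7 and 127 at ZT0, 95.2 and 97.0 at ZT6, 152, 122 and 99.7 at ZT12, and 86.2 and 113 at ZT18, with ZT0A again highest. Among the receptors, the KDEL receptors, which retrieve ER residents from the Golgi, had opposite signs: Kdelr2 0.49 ± 0.21 and Kdelr1 -0.46 ± 0.23. Kdelr1 at ZT18, 56.3 and 63.1 normalised CPM, was below the other 8 libraries, and Kdelr2 at ZT18, 173 and 159, was above them. Tmed2, a p24 cargo receptor, had normalised CPM values of 304, 227 and 297 at ZT0, 195 and 182 at ZT6, 372, 198 and 329 at ZT12, and 236 and 227 at ZT18, lowest in both ZT6 libraries and widely spread at ZT12. Neither KDEL receptor passed the test, and the difference between them was not tested.

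**Figure D3:**
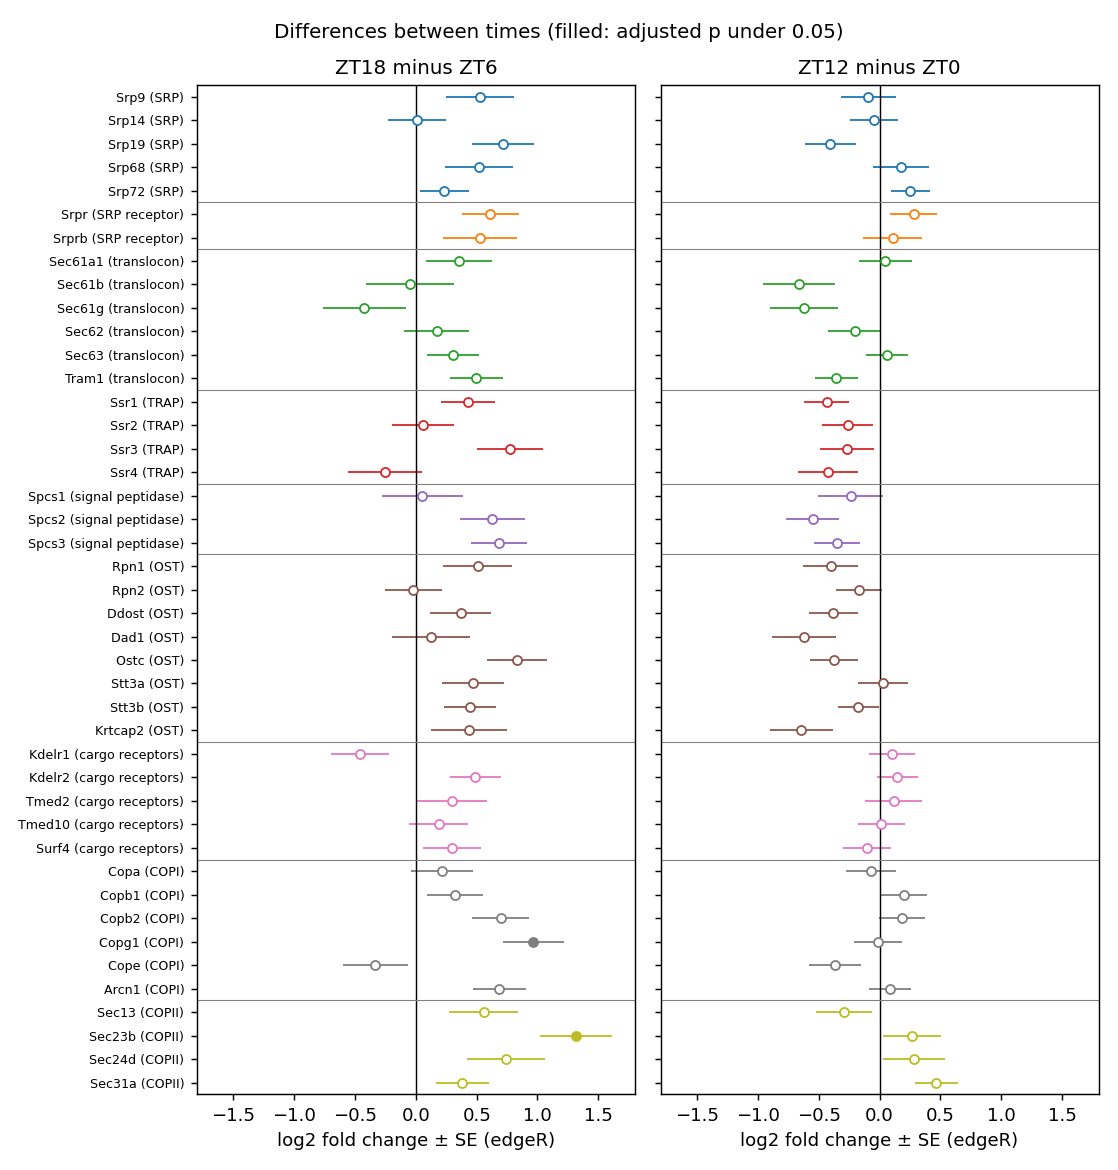
The log2 fold change ± SE (horizontal axis) of the 43 members (rows, coloured by role) for ZT18 minus ZT6 on the left and ZT12 minus ZT0 on the right, with filled points at an adjusted p under 0.05. Only Copg1 and Sec23b are filled, both on the left, where 37 of 43 points lie right of 0.

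Of the other genes of the pathway, 117 were listed (further translocation, glycosylation, COPI, COPII and cargo receptor genes), and 105 were tested. At ZT18 against ZT6, 3 of the 105 rose and 1 fell, near the shares of all genes, 2.35% and 1.45%. The 3 that rose act between the ER and the Golgi: Uso1, a vesicle tether (0.96 ± 0.22), Tfg, which organises ER exit sites (1.16 ± 0.26), and Mcfd2, a partner of the cargo receptor Lman1 (1.17 ± 0.22). Arf3, a small GTPase of the Golgi, fell by 0.86 on the log2 scale. Of 28 listed genes of ER protein folding and the unfolded protein response, 7 rose and 0 fell. They were led by Creld2 (2.53 ± 0.51), Manf (2.15 ± 0.38) and the chaperone BiP, encoded by Hspa5 (1.95 ± 0.32). The largest change called among the 43 members, 1.32 for Sec23b, was smaller than these 3 but larger than the smallest of the 7 (0.89). The difference between the lists was not tested.

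ZT12 against ZT0, the other pair of opposite times, called 0 of 43 members (edgeR), against 3.44% of genes (1.74% higher and 1.7% lower at ZT12). It gave 7 members at an unadjusted p under 0.05, where all genes gave 1385 of 8908, and the DESeq2 test also called 0. The lowest adjusted p was 0.210, for Sec31a, an outer COPII subunit. It had normalised CPM values of 82.0, 76.4 and 67.0 at ZT0, 73.4 and 58.4 at ZT6, 111, 93.6 and 108 at ZT12, and 85.5 and 86.9 at ZT18. All 3 ZT12 libraries lay above the other 7, a log2 difference of 0.47 ± 0.18 from ZT0. In all, 17 of 43 members were higher at ZT12 than at ZT0, against 49.9% of genes. With library size alone 22 members were, against 64.8% of genes. The libraries did not overlap for 3 higher and 6 lower, where 8.71% and 8.3% of genes did so. Letters paired ZT0 with ZT12, and with the letter as a block edgeR still called 0.

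Members lower at ZT12 tended to have short coding sequences. Across the 43 members the log2 difference between ZT12 and ZT0 correlated with the log2 of the coding length (Pearson r = 0.626, Spearman rho = 0.626), and across all 8504 tested genes with a coding length r was 0.142. All of these points share the same 10 libraries, and genes are not independent replicates. Krtcap2, an OST subunit with a coding length of 408 bases, had normalised CPM values of 318, 229 and 162 at ZT0, 219 and 172 at ZT6, 130.2, 193 and 128 at ZT12, and 244 and 285 at ZT18, with ZT0A highest of all libraries and ZT12C lowest. Sec61b (288 coding bases) read 496 in ZT0A against 232 and 212 in ZT0B and ZT0C, and Dad1 (339 coding bases) 283 against 142 and 156. Without ZT0A the correlation over members was 0.359 and over all genes 0.0338. Over 104 other pathway genes r was 0.235, and 0.00436 without ZT0A. For ZT18 against ZT6 r was 0.342 over members, 0.0350 over all genes and -0.0565 over the other pathway genes.

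The next comparison asked whether the members follow position in the lobule. Cells of each library were ordered by 8 periportal and 8 pericentral landmark genes, none of them a member. The cells were divided along it into 3 parts of equal size, and the UMIs of both outer parts were summed, so each library gave a pericentral and a periportal value. Of the 43 members 14 passed the test: 10 were higher in the periportal part and 4 in the pericentral part, against 24.8% of all 8923 genes (12% periportal and 12.8% pericentral). The 10 were Ssr2, Ddost, Spcs2, Ostc, Surf4, Cope, Rpn2, Sec61a1, Tram1 and Srpr, and the 4 were Krtcap2, Sec61g, Srp19 and Srp9. The differences were small, at most 36.9% higher periportally (Ssr2) and 22.4% higher pericentrally (Krtcap2). They went both ways within single complexes. The direction of this split depends on the scaling: with library size alone, under which the median gene was lower in the periportal part by 0.11 on the log2 scale, 4 members were called periportal (Ssr2, Ddost, Spcs2 and Surf4) and 10 pericentral, with 7.96% and 20.5% of all genes. Directions below are therefore relative to the bulk of genes, and no member called in the TMM scaling changed sign under library size alone.

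**Figure D4:**
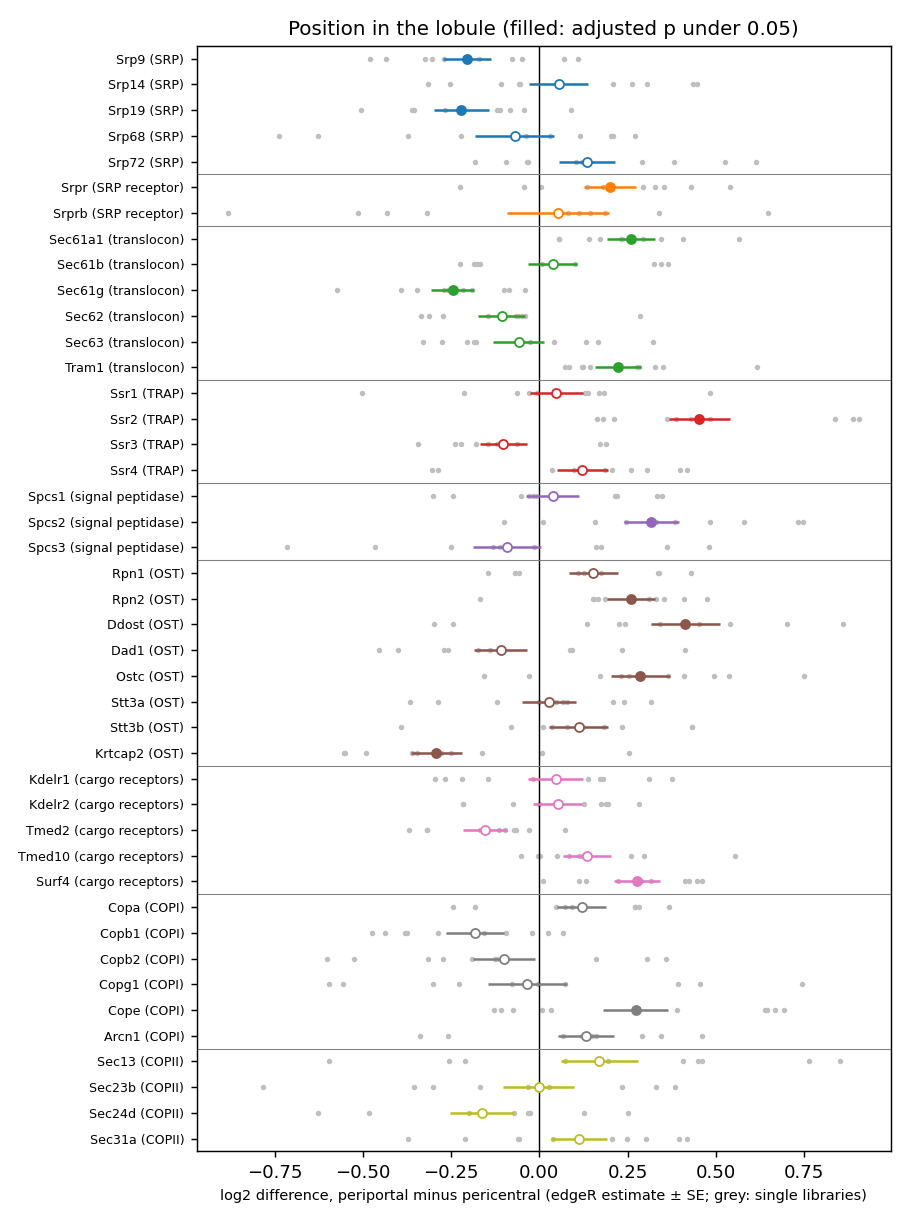
The log2 difference between the periportal and pericentral parts (horizontal axis) for the 43 members (rows, coloured by role), as the edgeR estimate ± SE, with filled points at an adjusted p under 0.05 and grey points for the single libraries. Filled points lie right of 0 for 10 members and left of 0 for 4, and Sec61a1, Tram1, Ssr2 and Surf4 have every library right of 0.

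In the translocon, Sec61a1 was higher periportally and Sec61g pericentrally. Sec61a1, the pore subunit, ranged from 87.9 to 164 normalised CPM (median 128) in the pericentral parts and from 104 to 185 (median 169) in the periportal parts. The difference within each library was 0.14, 0.06 and 0.57 at ZT0, 0.41 and 0.23 at ZT6, 0.05, 0.23 and 0.34 at ZT12, and 0.29 and 0.17 at ZT18 on the log2(normalised CPM + 1) scale, positive in 10 of 10 libraries. The fitted value was 0.26 ± 0.07 (edgeR adjusted p = 0.00381). Sec61g, the gamma subunit that clamps the channel, ranged from 524 to 1471 normalised CPM (median 681) in the pericentral parts and from 374 to 1228 (median 616) in the periportal parts. Its differences were -0.26, -0.27 and -0.22 at ZT0, -0.19 and -0.10 at ZT6, -0.09, -0.04 and -0.39 at ZT12, and -0.57 and -0.35 at ZT18, negative in 10 of 10 libraries. The fitted value was -0.25 ± 0.06 (edgeR adjusted p = 0.00255), while Sec61b had 0.04 ± 0.07 (edgeR adjusted p = 0.765). Positive differences in every library were found in 4 members (Sec61a1, Tram1, Ssr2 and Surf4) and negative ones in 1 (Sec61g), where 5.59% and 5.68% of genes did so.

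Because scaling cannot alter a ratio of 2 genes in the same cells, pairs within a complex, and 1 pair of SRP receptor and SRP genes, were compared directly. The pairs were chosen after the values had been seen, so no test is given, and their ratios restate the differences of the single genes. The log2 ratio of Sec61a1 to Sec61g was higher in the periportal than in the pericentral part by 0.50 ± 0.24 (SD, n = 10), in 10 of 10 libraries. That of Ssr2 to Ssr3 was higher by 0.60 ± 0.36 (9 of 10), of Rpn2 to Krtcap2 by 0.51 ± 0.42 (9 of 10), of Cope to Copb1 by 0.50 ± 0.47 (9 of 10), of Spcs2 to Spcs3 by 0.41 ± 0.44 (9 of 10) and of Srpr to Srp9 by 0.40 ± 0.32 (9 of 10). The remaining pairs were less even: the ratio of Ddost to Krtcap2 was higher by 0.58 ± 0.51 (7 of 10) and that of Sec61a1 to Sec61b by 0.21 ± 0.31 (6 of 10).

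Cells were also divided into 8 layers, with each gene set relative to its own mean over them. Sec61a1 went from 0.817 ± 0.145 of its mean over layers (SD, n = 10) in the most pericentral layer to 1.10 ± 0.0983 in the most periportal one. Sec61g went from 1.12 ± 0.101 to 0.924 ± 0.0910. Ssr2 went from 0.769 ± 0.256 to 1.15 ± 0.152, with most of the difference within the first 5 layers, where it reached 1.08 ± 0.176. Krtcap2 went from 1.07 ± 0.122 to 0.849 ± 0.0978. The layers were not tested one by one.

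**Figure D5:**
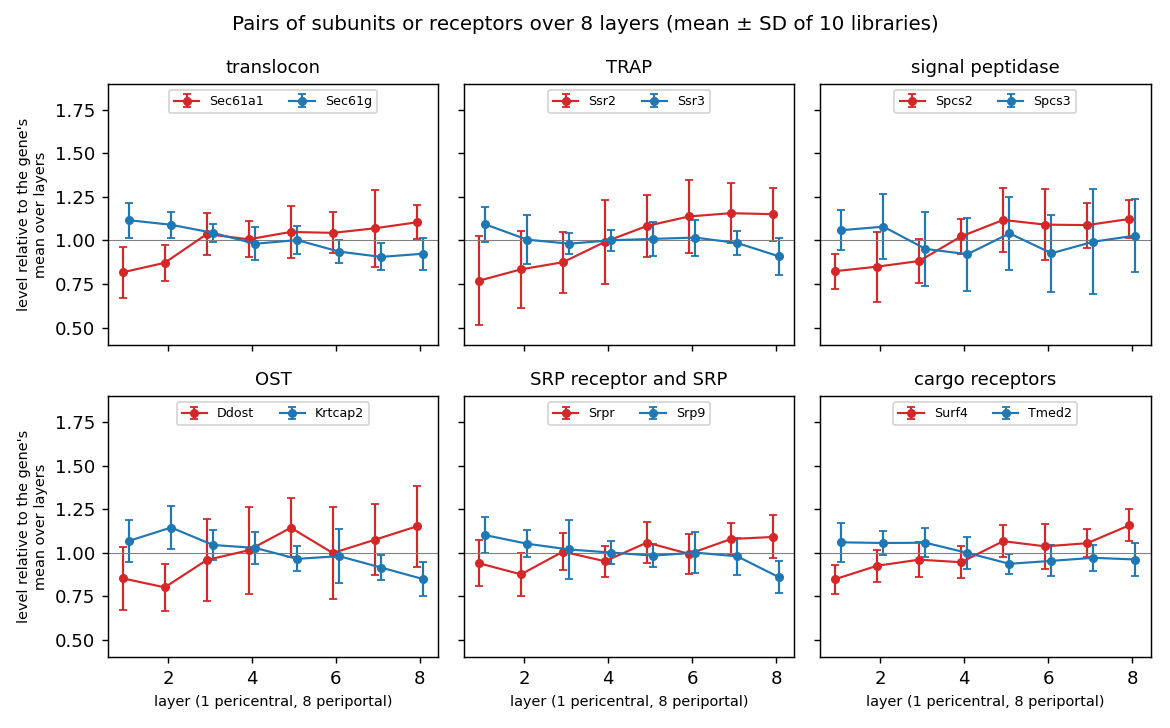
Level relative to the gene's mean over layers (vertical axis) in 8 equal layers of cells from pericentral (1) to periportal (8), as mean ± SD of 10 libraries, for 6 pairs of members. Sec61a1, Ssr2, Spcs2, Ddost and Surf4 go up towards the portal side, and Sec61g and Krtcap2 go down. Because each gene is divided by its own mean, the layer at which 2 curves cross is set by that scaling.

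TRAP gave the largest periportal difference and signal peptidase a smaller one, each through 1 subunit. Ssr2, the beta subunit of TRAP, ranged from 32.5 to 63.1 normalised CPM (median 48.9) in the pericentral parts and from 45.8 to 86.1 (median 67.8) in the periportal parts. Its differences were 0.16, 0.36 and 0.84 at ZT0, 0.18 and 0.89 at ZT6, 0.48, 0.43 and 0.91 at ZT12, and 0.21 and 0.39 at ZT18, positive in 10 of 10 libraries, and the fitted value was 0.45 ± 0.09 (edgeR adjusted p = 1.2e-04). Ssr1, Ssr3 and Ssr4 had 0.05 ± 0.07, -0.10 ± 0.07 and 0.12 ± 0.07, none past the threshold. Spcs2, an accessory subunit of signal peptidase, ranged from 64.5 to 157 normalised CPM (median 101) in the pericentral parts and from 90.6 to 197 (median 119) in the periportal parts. It was higher periportally in 9 of 10 libraries, at 0.32 ± 0.08 (edgeR adjusted p = 0.00211), and Spcs1 and Spcs3 had 0.04 ± 0.07 and -0.09 ± 0.10. Tram1, the channel partner, ranged from 111 to 220.5 normalised CPM (median 162) in the pericentral parts and from 139 to 239.8 (median 192) in the periportal parts, with a fitted value of 0.22 ± 0.07 (edgeR adjusted p = 0.0105).

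Within OST, 3 subunits were periportal and 1 pericentral. Ddost, needed for the stability of the complex, ranged from 25.6 to 43.6 normalised CPM (median 37.0) in the pericentral parts and from 22.9 to 62.9 (median 46.6) in the periportal parts. The groups overlapped widely, but 8 of 10 libraries were higher periportally, at 0.41 ± 0.10 (edgeR adjusted p = 0.00133). Rpn2 had 0.26 ± 0.07 (edgeR adjusted p = 0.00416, 9 of 10 libraries) and Ostc 0.29 ± 0.08 (edgeR adjusted p = 0.00905, 8 of 10 libraries). Krtcap2, which like Ostc belongs to the Stt3a form of the enzyme, ranged from 135 to 357 normalised CPM (median 219) in the pericentral parts and from 113 to 278 (median 189) in the periportal parts. Its differences were -0.36, -0.28 and -0.35 at ZT0, -0.49 and 0.25 at ZT6, -0.16, 0.01 and -0.25 at ZT12, and -0.55 and -0.55 at ZT18, negative in 8 of 10 libraries, and the fitted value was -0.29 ± 0.07 (edgeR adjusted p = 0.00259). The catalytic Stt3a and Stt3b had 0.03 ± 0.08 and 0.11 ± 0.08, and neither passed.

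In the targeting step, 2 SRP genes were pericentral and the receptor's alpha subunit periportal. Srp9 measured 259 ± 68.4 normalised CPM in pericentral parts and 223 ± 43.6 in periportal parts (SD, n = 10), at -0.21 ± 0.07 (edgeR adjusted p = 0.0225, 8 of 10 libraries lower periportally). Srp19 measured 62.5 ± 26.4 normalised CPM in pericentral parts and 53.9 ± 22.2 in periportal parts, at -0.22 ± 0.08 (edgeR adjusted p = 0.0359, 9 of 10). Srpr measured 99.6 ± 27.1 normalised CPM in pericentral parts and 115 ± 34.0 in periportal parts, at 0.20 ± 0.07 (edgeR adjusted p = 0.0449, higher periportally in 8 of 10). The adjusted p of Srp9 passed the threshold upward without ZT0B (0.0610), ZT6A (0.0503), ZT18A (0.0800) or ZT18B (0.0687). That of Srp19 did so without ZT0B (0.107), ZT0C (0.0995), ZT6A (0.0616), ZT6B (0.0520) or ZT18A (0.0870). It also did so with the DESeq2 test (0.137), no filter on low counts (0.0885) or only cells of at least 2000 UMIs (0.131). That of Srpr did so without ZT0B (0.0991), ZT6B (0.0795), ZT12B (0.0711), ZT12C (0.0806), ZT18A (0.0727) or ZT18B (0.124). It also did so with library size alone (0.336), the DESeq2 test (0.105) or no filter on low counts (0.0570). The same held without the 5% of cells with the most UMIs (0.105) or with only cells of at least 2000 UMIs (0.218).

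Among receptors and coats, Surf4 and Cope were periportal. Surf4, a receptor that exports soluble cargo such as lipoproteins from the ER, ranged from 138 to 246 normalised CPM (median 197) in the pericentral parts and from 190.4 to 276 (median 238) in the periportal parts. Its differences were 0.29, 0.22 and 0.11 at ZT0, 0.32 and 0.01 at ZT6, 0.46, 0.45 and 0.42 at ZT12, and 0.41 and 0.13 at ZT18, positive in 10 of 10 libraries, and the fitted value was 0.28 ± 0.06 (edgeR adjusted p = 0.00125). Cope measured 55.2 ± 19.2 normalised CPM in pericentral parts and 66.1 ± 17.5 in periportal parts, at 0.27 ± 0.09 (edgeR adjusted p = 0.0262, 7 of 10 libraries). Its call was lost without ZT0B (0.0665), ZT0C (0.0968), ZT6A (0.100) or ZT18A (0.0597). Of the COPII genes 0 of 4 passed, with Sec23b at -0.00 ± 0.10, Sec13 at 0.17 ± 0.11, Sec31a at 0.11 ± 0.08 and Sec24d at -0.16 ± 0.09. Tmed2 had -0.15 ± 0.06 (edgeR adjusted p = 0.0736), and Kdelr1 and Kdelr2 had 0.05 ± 0.08 and 0.05 ± 0.07.

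As a sum the 43 members differed along the lobule by less than the spread between libraries, at 5488 ± 902 normalised CPM pericentrally and 5495 ± 665 periportally, higher on the periportal side in 5 of 10 libraries. Without Sec61g, the most abundant member, the sums were 4730.3 ± 721 and 4851 ± 499, higher periportally in 7 of 10. The median log2 difference over the members was 0.05, against -0.01 over all genes. Of the 25 listed secreted proteins, by contrast, 21 were higher and 2 lower in the periportal part, and of the 28 ER folding genes 15 were higher and 0 lower. Among the 105 other pathway genes tested, 6 were periportal and 8 pericentral, where 12% and 12.8% of all genes were. The called pathway genes included Alg1, a mannosyltransferase of glycan assembly (0.48 ± 0.14), and Ost4, a further small OST subunit (-0.73 ± 0.08). Ost4 was lower periportally in 10 of 10 libraries. The differences between these lists and the members were not tested. Mitochondrial genes took a larger share of UMIs in the periportal part in 10 of 10 libraries (medians of 13.27% to 26.23% per library against 11.09% to 23.64%). The cholangiocyte list was higher there in 10 of 10 (1.16 to 54.2 against 0 to 15.5 normalised CPM), as was Sdc1 with the rest of the plasma cell list (182 to 349 against 81.2 to 222). Their part in the zone results was not tested.

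The last comparison asked whether the time course of a member differed between the lobule's ends. The test of zone by 24-h wave called 0 of 43 members (edgeR), against 0.0448% of genes. At an unadjusted p under 0.05 there were 3 members and 550 of the 8923 genes tested. The lowest adjusted p was 0.728, shared by Sec23b, Ssr4 and Spcs3. For Sec23b the periportal minus pericentral difference was 0.33, -0.00 and 0.39 at ZT0 and -0.78 and -0.35 at ZT6, on the log2(normalised CPM + 1) scale. For Ssr4 it was -0.29 and -0.31 at ZT18 and positive in the other 8 libraries. None of these differences passed the test.

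For 6 members the last 300 bases of the transcript have a near-identical copy elsewhere in the annotation, at 95% identity or more over at least 150 bases. They are Sec61b, Sec61g, Spcs2, Srpr, Srprb and Tmed10. How the deposited counts divided reads between such copies is not given in the sources used here, so the levels of these 6, including the Sec61g, Spcs2 and Srpr results, are uncertain to that extent.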

How the data were processed

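UMI counts were deposited by the authors as 1 table per library with a row per gene and a column per cell. The submitters' processing notes name Cell Ranger and the builds hg19 and mm10, without saying how each was used. The filter on cells, the treatment of doublets and the aligner settings are not given in the sources used here. All deposited cells were kept, and no cell profile was identical between libraries.

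Counts were summed per library, or per outer part, of 3 equal parts, of the cells in each library for the lobule. Cells were ordered by the mean z-score of 8 periportal minus 8 pericentral landmark genes, and scores from odd and even landmarks correlated across cells with r from 0.6829 to 0.8465. Sums were tested with edgeR 4.0.16 (R 4.3.3, glmQLFit and glmQLFTest, TMM factors of 0.888 to 1.143 by time and 0.8682 to 1.171 by zone), on genes averaging 3 CPM or more (8908 by time and 8923 by zone). All libraries entered each fit. The wave test was a 2-df F-test of cosine and sine of a 24-h period, contrasts came from a model with 1 mean per time, and zones were fitted with the library as a block. A standard error is the log2 change divided by the square root of F. Library differences between zones used log2(normalised CPM + 1), which understates changes of low genes.

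Same-letter libraries of ZT0 and ZT12 share the number in their 10x index names and deviated together (r of 0.238 to 0.465 in the 3 pairs), while ZT6 and ZT18 did not (r = 0.02047). Both ZT6 libraries share 1 index number and both ZT18 libraries another, so index number and time cannot be told apart there. Gene coordinates came from GENCODE M21.

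Values are given per library for members that passed a test (at most 12 per comparison) and for the member with the most UMIs in each role group, by their ranges for some zone results, and for members next to the threshold or set apart by ZT0A, which were chosen after their values were seen. Of other lists at most 3 called genes are named per comparison. The members and lists were chosen with earlier results of these data known. Alternatives were DESeq2 1.42.0, other scalings, filters, cell sets and zone widths, a letter block and omission of each library.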

Additional observations from a re-analysis of the deposited data

Results flagged for a closer look

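In 3 members 1 library stood far from the other 9 in its periportal minus pericentral difference, on the log2(normalised CPM + 1) scale. For Sec62, ZT12B had 0.2863 and the next library -0.04057, so it alone was positive. For Tram1, ZT12C had 0.6168 and the next 0.3495, in the same direction as all the others. For Rpn2, ZT6B had -0.1694 and the next 0.1515, so it alone was negative, and Rpn2 was still called periportal with that library left out. Chance alone flags about 1 in 20 groups of libraries, and 43 members were examined.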

How the results depend on the processing

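Position in the lobule gave 10 to 15 called members under every alternative, and the leave-one-out range was 10 to 14. The members called were not always the same. With library size alone Sec61a1, Tram1, Rpn2, Ostc, Cope and Srpr were not called. Copb1, Dad1, Sec24d, Sec62, Ssr3 and Tmed2 were called in that setting instead, all pericentral. Ssr2, Ddost, Spcs2, Surf4 and Sec61g were called under all 20 alternatives, Srpr under 9, and Cope and Srp19 under 12 each, and no called member changed direction. ZT12 against ZT0 gave 0 called members under all alternatives run, also when any 1 library was left out (0 to 0), as did zone by wave (0 to 0).

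The 24-h wave called 0 members, but 4 with the DESeq2 test, 1 with no filter on low counts, 1 (Srp19) when the times were tested for any change at once and 2 with the letter as a replicate block; leaving out 1 library gave 0 to 2, the 2 being Sec23b and Ostc without ZT0A. ZT18 against ZT6 called 2 members, 1 with library size alone (Sec23b), 5 with the letter as a replicate block (Arcn1, Copg1, Ostc, Sec23b and Ssr3) and 0 to 3 when 1 library was left out. The block changed no other call. The cause of these changes was not tested. At ZT6 and ZT18, leaving out 1 library leaves a single one, which is assumed to vary like the others. ZT12A and ZT12C, with the fewest UMIs, carry the most counting error.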
